A study of Mus musculus with 4 samples.

Results

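The insulin-like growth factor (IGF) genes were followed here in mouse fibroblasts with and without SIN1, through 19 probe sets of 10 genes among the 45101 probe sets of the array. They comprised 2 ligand genes with 5 probe sets, 2 receptor genes with 4 and 6 binding protein genes with 10. The members were taken by probe set number as a list of IGF genes, which was drawn up with earlier results of these data known. The deposited table names probe sets by number alone, so the pairing of these 19 with genes came from a supplied list and was not checked against probe sequences. SIN1 knock-out cells (genotype SIN1 KO, 2 arrays) were set against cells labelled wild type (2 arrays). All 4 arrays were of cells of the C57BL/6 strain, labelled both as MEFs and as murine epithelial fibroblasts, grown in DMEM with no further treatment given in the labels. SIN1, encoded by Mapkap1, is a subunit of mTOR complex 2, and the knock-out samples are labelled as having altered metabolism. The labels do not state if a genotype's arrays are of different embryos, lines or cultures, so p-values reflect the spread among the 4 arrays alone, and that spread may be technical. Neither Mapkap1 nor markers of fibroblasts or epithelial cells could be looked up by gene, so the genotype and cell type labels were not checked here.

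IGF1 and IGF2 are secreted peptides that bind IGF1R, a receptor tyrosine kinase that signals through PI3K to AKT, the kinase that mTOR complex 2 phosphorylates. IGF2R, also the cation-independent mannose 6-phosphate receptor, carries IGF2 to lysosomes for breakdown instead of signalling. IGF binding proteins hold the peptides outside the cell and set how much of them reaches a receptor. Mouse Igf2 is expressed mainly from the paternal allele and Igf2r mainly from the maternal allele in most tissues, so both are also imprinted growth regulators. Fibroblasts of the embryo are a known source of both ligands and of several binding proteins.

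Promoters are shown for the 4 genes with the clearest order of genotypes at every probe set, 0.72 log2 units or more between the nearest arrays: Igf2, which was higher in SIN1 KO, and Igf2r, Igfbp4 and Igfbp7, which were lower. All 10 genes had RefSeq promoters of assembly GRCm38.p6, 14 in all, each 300 bases long from 250 before to 50 after a listed transcript start. Igf2 has 4 listed starts, and the 2 that hold a GC box are shown, since a probe set value does not tell which start was used. Capitals mark a GC box (GGGCGG, or CCGCCC on the other strand) or a TATA box (TATAAA or TTTATA), and adjacent boxes run together.
Igf2, the third listed start, chr7:142658755-142659054, minus strand: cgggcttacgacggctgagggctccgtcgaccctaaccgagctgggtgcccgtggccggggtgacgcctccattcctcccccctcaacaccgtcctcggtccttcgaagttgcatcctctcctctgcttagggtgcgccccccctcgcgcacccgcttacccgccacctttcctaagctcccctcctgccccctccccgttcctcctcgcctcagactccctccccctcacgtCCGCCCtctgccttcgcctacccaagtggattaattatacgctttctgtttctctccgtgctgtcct
Igf2, the fourth listed start, chr7:142657447-142657746, minus strand: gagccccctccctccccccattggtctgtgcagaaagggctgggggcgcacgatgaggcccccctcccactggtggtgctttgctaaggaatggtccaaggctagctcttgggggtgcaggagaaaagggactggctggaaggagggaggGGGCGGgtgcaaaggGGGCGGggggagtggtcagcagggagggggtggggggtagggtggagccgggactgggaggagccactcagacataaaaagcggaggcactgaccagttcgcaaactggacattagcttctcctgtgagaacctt
Igf2r, chr17:12769657-12769956, minus strand: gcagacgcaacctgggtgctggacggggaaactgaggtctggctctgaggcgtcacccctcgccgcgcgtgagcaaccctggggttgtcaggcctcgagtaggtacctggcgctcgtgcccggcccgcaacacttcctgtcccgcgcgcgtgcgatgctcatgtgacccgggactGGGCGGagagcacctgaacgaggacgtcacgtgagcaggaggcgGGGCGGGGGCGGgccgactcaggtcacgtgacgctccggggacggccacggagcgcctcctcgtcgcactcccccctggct
Igfbp4, chr11:99040994-99041293, plus strand: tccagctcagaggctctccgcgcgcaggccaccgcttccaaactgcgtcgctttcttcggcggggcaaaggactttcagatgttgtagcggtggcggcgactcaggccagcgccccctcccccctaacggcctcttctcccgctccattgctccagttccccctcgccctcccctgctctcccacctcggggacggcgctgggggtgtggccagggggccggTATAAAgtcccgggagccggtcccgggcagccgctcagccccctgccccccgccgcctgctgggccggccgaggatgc
Igfbp7, chr5:77407996-77408295, minus strand: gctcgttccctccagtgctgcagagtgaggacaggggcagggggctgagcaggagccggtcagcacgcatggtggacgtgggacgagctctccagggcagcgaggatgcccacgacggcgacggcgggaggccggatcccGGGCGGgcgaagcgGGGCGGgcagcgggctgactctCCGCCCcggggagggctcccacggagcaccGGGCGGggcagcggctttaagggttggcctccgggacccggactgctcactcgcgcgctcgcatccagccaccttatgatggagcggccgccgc

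None of the 14 promoters held the core motif of FoxO factors, which AKT keeps out of the nucleus (GTAAACA, or TGTTTAC on the other strand). That motif was present in 3.65% of the 32851 promoters of the same length in the table. A GC box was present in 6 of the 14 promoters, against 35.7% of all promoters. The Igf2r promoter held 3 GC boxes, the Igfbp7 promoter 4, the first Igfbp2 promoter 3 and the Igf1r promoter 2. A TATA box was present in 2 of the 14, those of Igfbp4 and Igfbp6, against 13.6% of all promoters. CpG dinucleotides numbered 24 at the third and 7 at the fourth Igf2 start, against a median of 7.0 over all promoters, while Igf2r had 34, Igfbp7 had 33 and Igfbp4 had 27. The highest counts were at Igf1r, with 48, and Igfbp3, with 37, neither of which was lower in SIN1 KO. Igf1 had 6 and Igfbp5 had 10, although the brightest probe set of each was lower. Igfbp6 had 8, Igfbp2 had 18 and 14 at its starts, and the other Igf2 starts had 2 and 14. A high CpG count was thus neither confined to the lower genes nor shared by all of them. The motif and CpG values are counts of letters in a window and say nothing of binding.

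Values are on the log2 scale, 1 unit being a 2-fold difference, as deposited after RMA. The arrays were unevenly related before any gene was considered. The most alike pair, SIN1 KO 1 with wild type 1 (Pearson r = 0.971 across probe sets), and the least alike, SIN1 KO 2 with wild type 2 (r = 0.904), each joined different genotypes, so every result is also given by array. A background level was set on each array as the highest of its 27 Bacillus subtilis control probe sets, which was 3.75 and 4.27 in SIN1 KO 1 and 2 and 4.05 and 3.91 in wild type 1 and 2. Of the 19 IGF probe sets, 15 were above it on all 4 arrays, as were 20707 of all 45037 probe sets that are not controls. The other 4 IGF probe sets were 3 of the 4 Igf1 probe sets and that of Igf2. Hybridisation controls, added to each sample, averaged 11.41 and 11.54 on the SIN1 KO arrays and 11.85 and 11.73 on the wild type arrays, a difference of -0.32. With the arrays scaled to these controls, the 10 IGF probe sets that were lower in SIN1 KO without overlap kept that order. Both SIN1 KO averages were below both wild type averages, so this scaling raises SIN1 KO against wild type for every pair of arrays. The 3 probe sets higher without overlap could thus not lose their order under it.

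In SIN1 KO cells, Igf2 was far higher than in wild type cells on both arrays, while Igf2r, Igfbp4, Igfbp7 and the brightest Igf1 probe set were lower on both arrays than on either wild type array. Igf1r differed by 0.34 and 0.25 at its probe sets, and Igfbp2 and Igfbp3 varied more between arrays of a genotype than between genotypes. The 2 SIN1 KO arrays lay above both wild type arrays for 3 of the 19 probe sets (15.8%) and below both for 10 (52.6%). Over all 45037 tested probe sets the shares were 20.4% above and 14.9% below, or 35.3% without overlap in either direction, against 68.4% of the 19. With values under an array's background level set to that level, a step added after seeing the data, 3 of the 19 lay above, against 11.6% of all probe sets, and 8 below, against 9.02% of all. The 2 that left the lower count were Igf1 1419519_AT and 1437401_AT. With 1 probe set for each gene, the brightest, 3 genes were higher without overlap, 5 lower and 2 overlapped. The 3 included Igf1r, parted by 0.05 only, and the 5 included Igfbp5, whose other probe set overlapped. No share over all genes could be set beside these counts, since other probe sets were not paired with genes. The median difference over the 19 was -0.94, against 0.04 over all tested probe sets, and the median size of the difference was 1.69, against 0.31. Among probe sets above background on all 4 arrays, 15 of the 19, the median difference was -0.94, against 0.02 for all. The median size among these was 1.41, against 0.42. The median over the 19 became -0.52 without wild type 2, -0.62 under scaling to the hybridisation controls, where that over all was 0.36, and -0.45 over the 16 kept by a filter at the median level. Several of these probe sets read the same gene and are not independent.

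None of the 19 passed limma's test with Benjamini-Hochberg adjustment over all tested probe sets, and neither did any other probe set (0% called in either direction). The adjusted p of the 19 ranged from 0.795 to 0.992. At an unadjusted limma p under 0.05, 7 of the 19 passed, against 5.57% of all probe sets, 1 higher in SIN1 KO and 6 lower. The 6 were Igf1 1452014_A_AT, Igf2r 1424112_AT, the 3 Igfbp4 probe sets and Igfbp7, and the 1 was Igf2. At 2 arrays against 2, the exact two-sided permutation test of a single value cannot go below p = 0.333, so it was not used. A gap of at least 1 log2 unit between the means, with no overlap, was found for 2 of the 19 with SIN1 KO higher, against 3.27% of all probe sets, and for 9 with SIN1 KO lower, against 4.12% of all. With values under background set to that level these became 2, against 2.81% of all, and 7, against 2.96% of all, the 2 dim Igf1 probe sets leaving the count. That size was chosen after the values were seen.

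**Figure D1:**
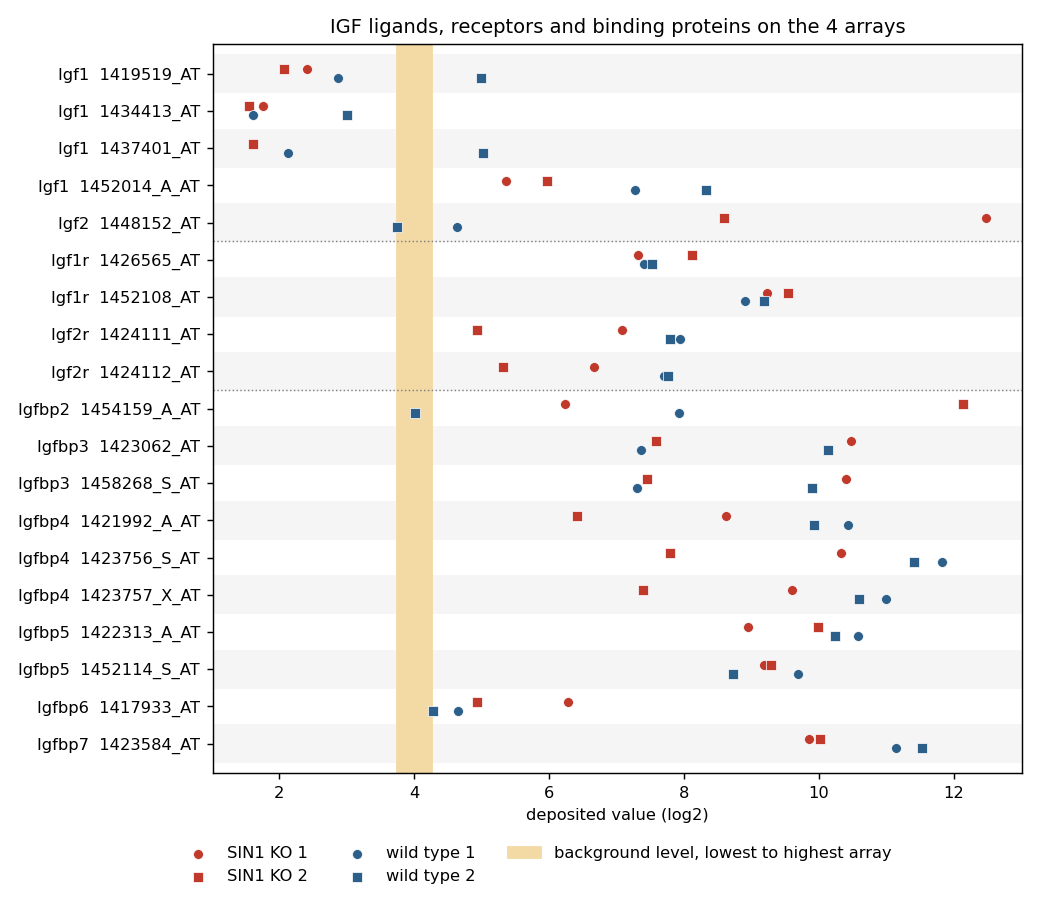
Deposited log2 value (horizontal axis) of each of the 19 IGF probe sets (rows) on the 2 SIN1 KO arrays (red) and the 2 wild type arrays (blue), circles for number 1 and squares for number 2. The band spans the background levels of the arrays, and dotted lines part ligands, receptors and binding proteins. The red points of Igf2 stand at 12.47 and 8.59, right of the blue ones at 4.63 and 3.75, while those of Igf2r, Igfbp4 and Igfbp7 stand left of the blue points. The SIN1 KO points of Igf1 1437401_AT coincide at 1.61.

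Igf2, the ligand that drives growth of the fetus, had the widest difference of the 19. Probe set 1448152_AT measured 12.47 and 8.59 on SIN1 KO arrays 1 and 2, against 4.63 and 3.75 on wild type arrays 1 and 2. Both SIN1 KO values were far above background and both wild type values close to it, with wild type 2 below the background level of its array. The mean was 10.53 ± 2.75 in SIN1 KO and 4.19 ± 0.63 in wild type (SD, n = 2 each). That is a difference of 6.34 (SE 1.37, 95% interval 2.67 to 10.01), with a limma p of 0.00783 unadjusted and 0.82 adjusted. With wild type 2 set to its background level the difference of the means was 6.26, or 76.5-fold. This allows for the low wild type 2 value only and is not a lower limit, given the spread of the SIN1 KO arrays. The nearest arrays of the genotypes, SIN1 KO 2 and wild type 1, were 3.95 apart, which is 15.5-fold. The SIN1 KO arrays differed by 3.88 from each other, and 0.238% of all probe sets had a gap between them as wide as that. Leaving out SIN1 KO 1 gave a difference of 4.40 and leaving out SIN1 KO 2 one of 8.28, so its size, though not its direction, rested on which SIN1 KO array was taken.

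Igf1, the ligand that carries much of the action of growth hormone after birth, was lower in SIN1 KO cells at the probe set that was above background on every array. Probe set 1452014_A_AT measured 5.36 and 5.97 on the SIN1 KO arrays, against 7.28 and 8.33 on the wild type arrays. The 2 genotypes did not overlap, and the nearest arrays were 1.30 apart. The difference was -2.14 (SE 0.48, 95% interval -3.42 to -0.85), 4.40-fold lower in SIN1 KO, with a limma p of 0.009 unadjusted and 0.82 adjusted. Leaving out each array in turn gave -2.67 to -1.61.

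The other Igf1 probe sets were dim. Probe set 1419519_AT measured 2.41 and 2.07 on the SIN1 KO arrays and 2.88 and 4.99 on the wild type arrays, and 1437401_AT measured 1.61 and 1.61 on the SIN1 KO arrays and 2.13 and 5.02 on the wild type arrays. Each of these was above background on wild type 2 alone, so no fold is given for them. Probe set 1434413_AT, at 1.76 and 1.56 on the SIN1 KO arrays and 1.61 and 3.0 on the wild type arrays, was above background on none. Wild type 2 thus gave the highest value at all 4 Igf1 probe sets. On the same array the control probe sets for transferrin receptor averaged 8.26, against 6.63 and 6.08 on the SIN1 KO arrays and 6.45 on wild type 1. Those for Gapdh, beta-actin and pyruvate carboxylase were not highest on wild type 2, where they averaged 12.89, 12.70 and 5.51. Their highest averages were 13.09 and 12.97 on wild type 1 and 6.24 on SIN1 KO 2. Without wild type 2 the difference at 1452014_A_AT was -1.61, and no array left was above background at the dim probe sets.

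Igf1r, the signalling receptor for both ligands, had the closest levels in the 2 genotypes among the ligand and receptor genes. Probe set 1452108_AT measured 9.23 and 9.54 on the SIN1 KO arrays, against 8.91 and 9.18 on the wild type arrays. The arrays of the genotypes were parted by 0.05 only, and the difference was 0.34 (SE 0.28, 95% interval -0.41 to 1.09, limma adjusted p 0.826). Its second probe set, 1426565_AT, measured 7.32 and 8.12 on the SIN1 KO arrays and 7.41 and 7.52 on the wild type arrays, which overlap. There the difference was 0.25 (95% interval -0.73 to 1.24, limma adjusted p 0.888), and scaling to the hybridisation controls gave 0.66 and 0.57 for the 2 probe sets.

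Igf2r, the receptor that clears IGF2, was lower in SIN1 KO cells at both of its probe sets. Probe set 1424112_AT measured 6.66 and 5.32 on the SIN1 KO arrays, against 7.71 and 7.77 on the wild type arrays. Probe set 1424111_AT measured 7.08 and 4.94 on the SIN1 KO arrays, against 7.94 and 7.80 on the wild type arrays. Neither overlapped, SIN1 KO 2 was the lowest array at both, and the wild type arrays were within 0.14 of each other. The difference was -1.75 (SE 0.51, 95% interval -3.13 to -0.37) at 1424112_AT, with a limma p of 0.0234 unadjusted and 0.82 adjusted. It was -1.86 (SE 0.76, 95% interval -3.91 to 0.19) at 1424111_AT, with a limma adjusted p of 0.82. Without SIN1 KO 2 the differences were -1.08 and -0.79, and without SIN1 KO 1 they were -2.42 and -2.93, so a single array moved the size by more than the direction. Igf2 and Igf2r, the 2 imprinted genes of the set, lay on opposite sides of wild type on each SIN1 KO array. SIN1 KO 1 had the higher Igf2 value and SIN1 KO 2 the lower Igf2r values.

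**Figure D2:**
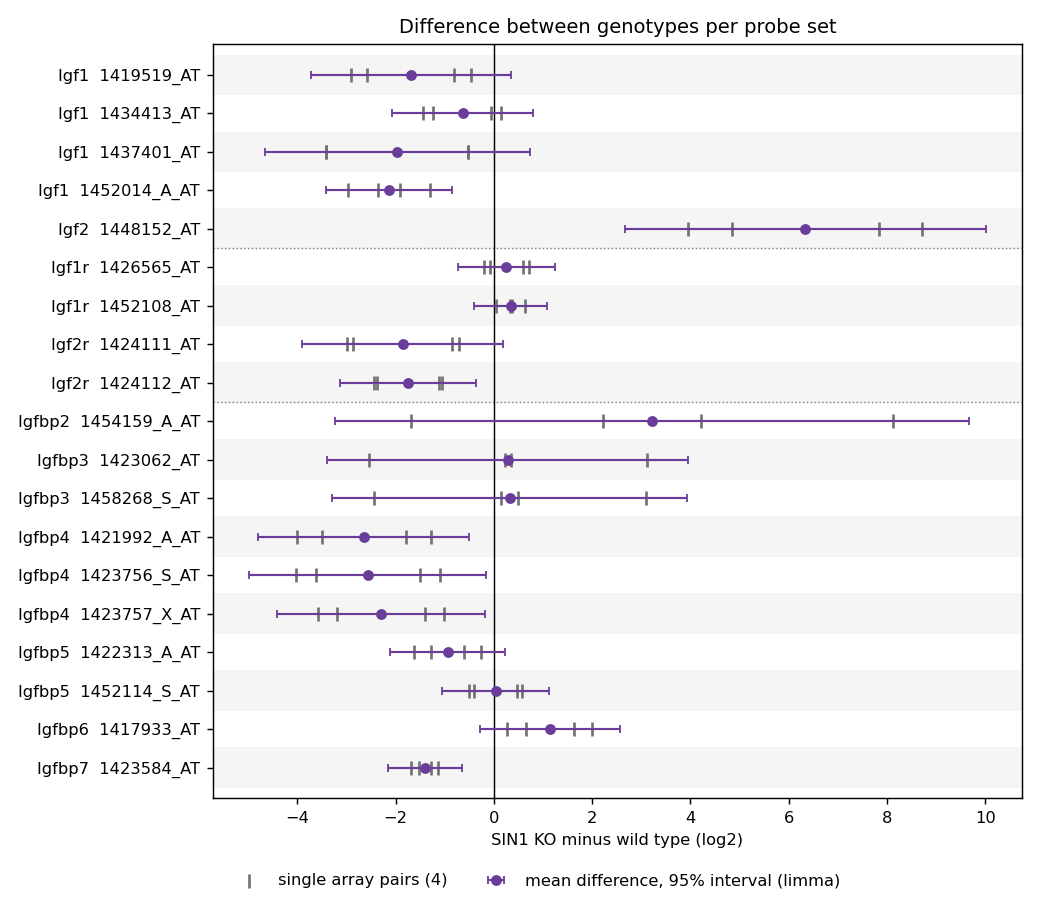
Difference SIN1 KO minus wild type (log2, horizontal axis) for each of the 19 IGF probe sets (rows). Purple points are mean differences with limma's 95% interval, and grey ticks are the 4 differences between a single SIN1 KO and a single wild type array. All 4 ticks lie right of 0 for Igf2 (3.95 to 8.72) and left of 0 for Igf2r, Igfbp4 and Igfbp7, while those of Igfbp2 run from -1.69 to 8.12.

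Among the binding proteins, Igfbp4 and Igfbp7 were the ones lower in SIN1 KO at every probe set measured. IGFBP4, which mainly holds back IGF action and is cut by the protease PAPP-A, was read by 3 probe sets with the same order of arrays. Probe set 1423756_S_AT measured 10.32 and 7.79 on the SIN1 KO arrays, against 11.83 and 11.41 on the wild type arrays. Probe set 1421992_A_AT measured 8.63 and 6.42 on the SIN1 KO arrays, against 10.43 and 9.93 on the wild type arrays. Probe set 1423757_X_AT measured 9.60 and 7.40 on the SIN1 KO arrays, against 10.99 and 10.60 on the wild type arrays. All 3 put SIN1 KO 2 lowest, SIN1 KO 1 next and wild type 1 highest, with the genotypes 1.01 to 1.29 apart at their nearest arrays. The differences were -2.57 (SE 0.90), -2.65 (SE 0.80) and -2.30 (SE 0.79) in that order, or 5.92-fold, 6.29-fold and 4.92-fold lower in SIN1 KO. Their unadjusted limma p was 0.0414, 0.0261 and 0.0392, and their adjusted p 0.82. Without SIN1 KO 2 they were -1.30, -1.55 and -1.20, and without SIN1 KO 1 -3.83, -3.76 and -3.39. The suffixes S and X mark probe sets whose probes can bind transcripts of more than 1 gene, which 1421992_A_AT does not carry.

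Igfbp7 encodes a secreted protein related to the IGF binding proteins that binds IGFs only weakly. Its probe set 1423584_AT measured 9.85 and 10.01 on the SIN1 KO arrays, against 11.14 and 11.53 on the wild type arrays. Each genotype was tight, with the arrays 0.16 apart in SIN1 KO and 0.39 apart in wild type, and the genotypes were 1.13 apart at the nearest arrays. The mean was 9.93 ± 0.12 in SIN1 KO and 11.34 ± 0.28 in wild type (SD, n = 2 each). The difference of -1.41 (SE 0.28, 95% interval -2.16 to -0.65), 2.65-fold lower in SIN1 KO, had the lowest p of the 19, at 0.00589 unadjusted and 0.795 adjusted in limma's test. Leaving out each array in turn moved it between -1.60 and -1.21.

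Igfbp5, whose product binds the extracellular matrix as well as IGFs, gave a split answer. Probe set 1422313_A_AT measured 8.95 and 9.98 on the SIN1 KO arrays, against 10.58 and 10.24 on the wild type arrays. These did not overlap, but SIN1 KO 2 came within 0.26 of wild type 2. Probe set 1452114_S_AT measured 9.19 and 9.29 on the SIN1 KO arrays, inside the 9.69 and 8.72 of the wild type arrays. The differences were -0.94 (95% interval -2.11 to 0.23) and 0.04 (95% interval -1.06 to 1.13), with limma adjusted p of 0.82 and 0.992. Leaving out SIN1 KO 1 gave -0.43 for the first, and leaving out SIN1 KO 2 gave -1.45. The second carries the S suffix, and whether it reads other transcripts was not tested.

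Igfbp6, whose product binds IGF2 in preference to IGF1, measured 6.28 and 4.93 on the SIN1 KO arrays and 4.65 and 4.28 on the wild type arrays at 1417933_AT. SIN1 KO was higher on both arrays, but SIN1 KO 2 was only 0.27 above wild type 1. Both wild type values were near background, and so was that of SIN1 KO 2, whose background level was 4.27. The difference was 1.14 (SE 0.53, 95% interval -0.29 to 2.56), or 2.20-fold, with a limma adjusted p of 0.82. Leaving out SIN1 KO 2 gave 1.81, and leaving out SIN1 KO 1 gave 0.46. Since SIN1 KO 1 was also the array with the higher Igf2 value, both genes that were higher by over 1 unit without overlap, Igf2 and Igfbp6, had their highest value on that array.

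Igfbp2 and Igfbp3 did not follow genotype. IGFBP2 is a binding protein abundant in serum and fetal tissues, and its probe set 1454159_A_AT measured 6.23 and 12.14 on the SIN1 KO arrays and 7.92 and 4.02 on the wild type arrays. The extremes were SIN1 KO 2 and wild type 2, with both number 1 arrays between them. The SIN1 KO arrays were 5.91 apart and the wild type arrays 3.90 apart, gaps reached by 0.0244% and 0.184% of all probe sets. The value of 4.02 on wild type 2 was close to the background level of that array, 3.91. The mean difference of 3.22 (SE 2.40, 95% interval -3.23 to 9.67, limma adjusted p 0.821) was 0.26 when SIN1 KO 2 was left out and 6.17 when SIN1 KO 1 was. SIN1 KO 2 and wild type 2 were also the least alike arrays over all probe sets, and the part of that in the Igfbp2 values was not tested.

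Igfbp3, the main carrier of IGFs in serum, was high on 1 array of each genotype. Probe set 1423062_AT measured 10.48 and 7.59 on the SIN1 KO arrays and 7.37 and 10.14 on the wild type arrays. Its other probe set, 1458268_S_AT, measured 10.40 and 7.45 on the SIN1 KO arrays and 7.30 and 9.90 on the wild type arrays, close to the first on each array. The high arrays were thus SIN1 KO 1 and wild type 2 at both probe sets, and the low ones SIN1 KO 2 and wild type 1. The differences of 0.28 and 0.32 had 95% intervals of -3.40 to 3.96 and -3.30 to 3.94 and limma adjusted p of 0.974 and 0.969. The gap between the wild type arrays, 2.77 at 1423062_AT, was reached by 0.779% of all probe sets, and that between the SIN1 KO arrays, 2.89, by 0.655%. Without SIN1 KO 1 or without wild type 1 both differences turned negative, so these 4 arrays give no direction for Igfbp3.

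**Figure D3:**
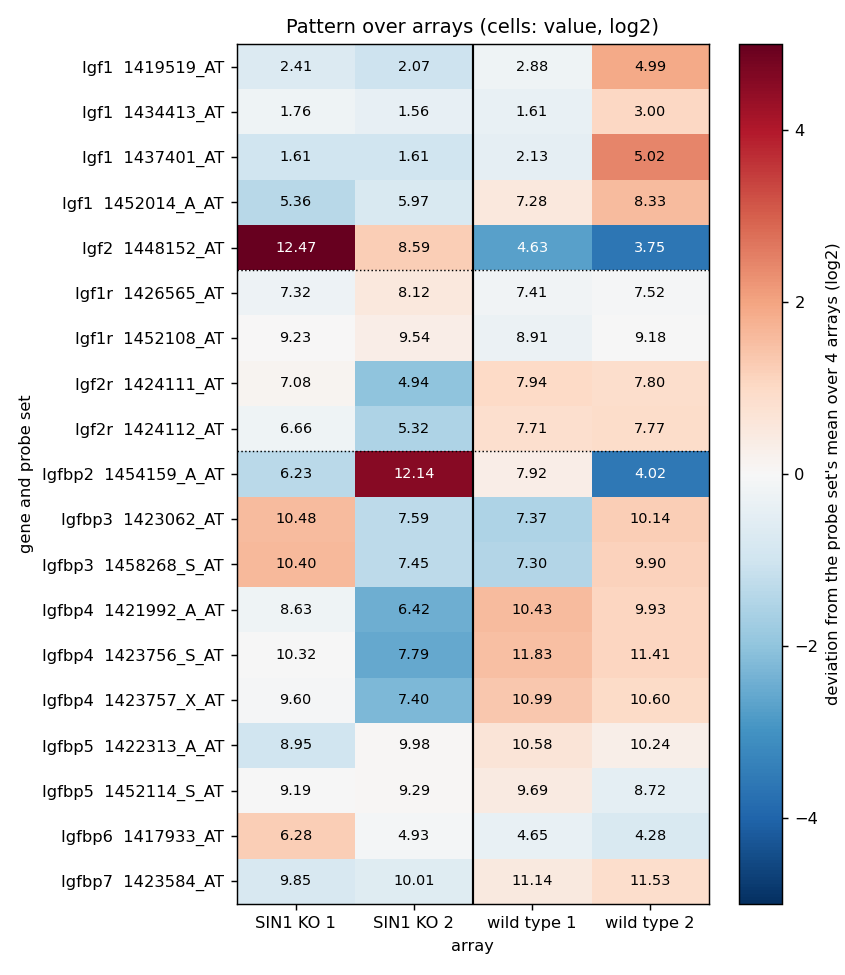
Value (number in each cell, log2) of the 19 IGF probe sets (rows) on SIN1 KO 1, SIN1 KO 2, wild type 1 and wild type 2 (columns), coloured by the deviation from the mean of the probe set over the 4 arrays. Igf2r and Igfbp4 are blue on SIN1 KO 2, close to white on SIN1 KO 1 and pale red on the wild type side. Igfbp7 is pale throughout, with its lower values on the SIN1 KO side. Igfbp3 is pale red on SIN1 KO 1 and wild type 2. The reddest cells are Igf2 on SIN1 KO 1, at 12.47, and then Igfbp2 on SIN1 KO 2, at 12.14.

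Probe sets of 1 gene mostly gave similar differences where they were above background. The differences of the 3 Igfbp4 probe sets ranged from -2.65 to -2.30, those of Igf2r from -1.86 to -1.75, those of Igfbp3 from 0.28 to 0.32 and those of Igf1r from 0.25 to 0.34. Igfbp5 was the exception, with -0.94 and 0.04. The median gap between the SIN1 KO arrays was 1.34 over the 19, against 0.40 over all tested probe sets, and between the wild type arrays it was 0.50, against 0.38. Among probe sets above background on all 4 arrays, the median SIN1 KO gap was 1.35 for IGF probe sets, against 0.53 for all. The median wild type gap among these was 0.39, against 0.53, and so was not wider for the IGF probe sets. SIN1 KO 2 held the lowest value for 7 of the 19 and SIN1 KO 1 for 5, while wild type 1 and wild type 2 each held the highest value for 6. Shares over all probe sets were not computed for these counts, and several of the 19 read the same gene. In RNA from whole cultures, fewer cells making a transcript and less transcript per cell cannot be told apart.

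**Figure D4:**
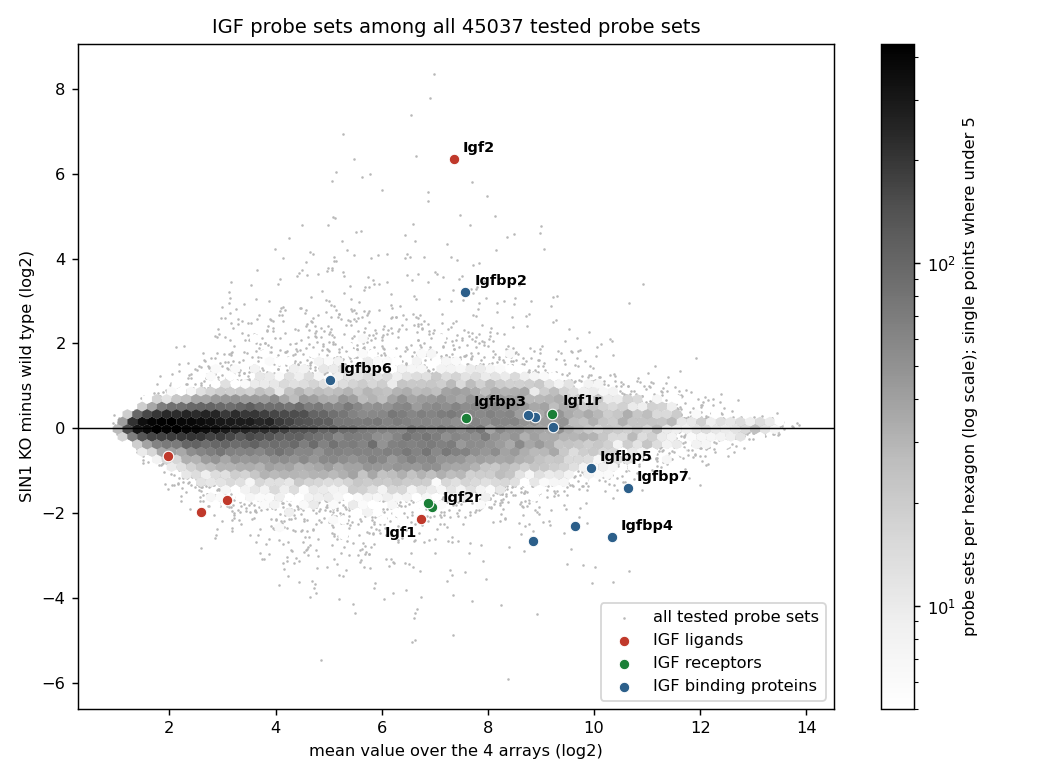
Difference SIN1 KO minus wild type (vertical axis, log2) against the mean value over the 4 arrays (horizontal axis, log2) for all 45037 tested probe sets (grey, darker where denser) and the 19 IGF probe sets (coloured by role; the brightest of each gene is named). Igf2 lies at 6.34, far above the bulk, and the 3 Igfbp4 probe sets at -2.65 to -2.30 lie below it at high mean values.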

How the data were processed

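Gene expression was measured on 4 mouse arrays of biotin-labelled RNA, 2 of SIN1 KO and 2 of wild type cells, with groups and replicate numbers taken from the sample titles. The deposited log2 values were made by the authors with RMA, per the submitters' processing notes; its version and settings are unstated in those notes. No further normalization was applied. The 64 control probe sets were left out of the test. The comparison used limma (version 3.58.1, under R 4.3.3; lmFit, eBayes) on the other 45037, with 2 residual and 2.38 prior degrees of freedom, p adjusted by Benjamini-Hochberg over all of them and called under 0.05. With 4 arrays the median SE of a difference was 0.33, which limits precision. The fit was tested on simulated data. A count of 0 calls does not show that the genotypes were alike. Every one of the 19 probe sets is named. The members, lists and background level were chosen with earlier results of these data known. Lists of other IGF pathway genes and of cell type markers were not analysed here, since nothing paired them with probe sets. Promoter sequences are RefSeq's, assembly GRCm38.p6. Deviations of arrays with the same number from their genotype means correlated negatively (r = -0.415), so the numbers were not taken to pair arrays. Alternatives were other scalings, a filter at the median level, other variance priors, the replicate number as a block, the mean of the probe sets of a gene, another background level and leaving out each array. Plots used matplotlib 3.10.9 (Python 3.11.15).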

Additional observations from a re-analysis of the deposited data

How the results depend on the processing

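The count of IGF probe sets past the adjusted threshold was 0 in both directions under every alternative run. Over all probe sets it was 0 under each except the filter at the median level, which called 5, all higher in SIN1 KO and none of them an IGF probe set. With the replicate block 0 were called, and 0 also with crossed pairs (SIN1 KO 1 with wild type 2) blocked, a fit added after seeing the data. These fits and those without an array had 1 residual degree of freedom, and a lone array was taken to vary as much as the arrays of the other genotype. At an unadjusted limma p under 0.05, 1 IGF probe set higher and 6 lower became 1 and 3 under scaling to the hybridisation controls, which moved the median of all probe sets from 0.04 to 0.36, and 0 and 2 without wild type 2. Of all probe sets, 11.9% higher and 0.822% lower passed it under that scaling and 1.15% and 1.65% without wild type 2, against 3.0% and 2.57% on the deposited scale. The same 10 probe sets stayed lower without overlap under median centring, cyclic loess and that scaling, where 13.3%, 17.6% and 4.21% of all probe sets did so. Of those higher, cyclic loess lost Igf1r 1452108_AT, and the scaling added Igf1r 1426565_AT, with 19.2% and 51.4% of all probe sets higher without overlap. Leaving out 1 array, which loosens the rule by construction, gave 5 higher and 11 lower each time, but also 29.9% to 43.7% of all probe sets higher and 28.0% to 33.2% lower, so the 5 (26.3%) were no more than the share of all. Of 133 differences of single probe sets recomputed under other scalings or without an array, 124 kept their sign and 9 turned it. Other priors, the block and the filter leave differences as they are by construction. Leaving out arrays turned Igf1 1434413_AT (-1.34 to 0.05, positive without wild type 2, and above background on no array), Igf1r 1426565_AT (-0.15 to 0.66, negative without SIN1 KO 2), Igfbp3 1423062_AT (-1.17 to 1.72) and 1458268_S_AT (-1.15 to 1.79), both negative without SIN1 KO 1 (-1.17 and -1.15) or wild type 1 (-1.10 and -0.98), and Igfbp5 1452114_S_AT (-0.45 to 0.52, negative without SIN1 KO 2 or wild type 2). Cyclic loess turned Igfbp5 1452114_S_AT to -0.01. Adjusted p values of Igf2 ranged from 0.334 to 1 over its alternatives. As the mean of all its probe sets, Igf1 differed by -1.61 and Igfbp5 by -0.45. With the second highest control as background, 16 of the 19 were above it on all 4 arrays, against 15.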
